A study of Mus musculus with 6 samples.

Results

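The genes examined were 33 members of the ATF4 programme, in 3 functional sets: 7 stress factors and effectors around ATF4 and CHOP, 6 enzymes of asparagine, serine and one-carbon metabolism, and 20 subunits of the cytosolic aminoacyl-tRNA synthetases. They were taken by gene symbol from a table of 25899 symbols, for what they are known to do. The choice was made with earlier results of these data known. All 33 passed the filter on low counts, which left 13869 genes for testing.

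Nascent RNA was measured in E14tg2a mouse embryonic stem cells (129SV background) that carry a cRAF-ErT2 cassette, a RAF kinase fused to an oestrogen receptor domain that responds to 4-hydroxytamoxifen (4OHT). The single contrast of the design asks what is transcribed differently after 2 h of ERK activation. It holds 3 clones, a, b and c, each with 1 untreated library and 1 library after 250 nM 4OHT for 2 h. In every library newly made RNA carried ethynyl uridine, given at 5 mM for the last 15 min, and was captured before sequencing. All cells had been grown with serum, LIF and 2 µM CHIR99021, a GSK3 inhibitor, and both groups then spent 24 h in serum and LIF with 250 nM PD173074, an FGF receptor inhibitor, in place of that medium. None of the libraries is named a solvent control and none comes from cells without the cassette given 4OHT, so an effect of 4OHT itself cannot be told apart from one of the kinase. The promoter that drives the cassette is not given in the sources used here, and whether the clones were cultured independently is not stated, so the p-values reflect only how these 6 libraries vary.

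ATF4 is a transcription factor made when stress kinases phosphorylate the initiation factor eIF2, as happens on amino acid shortage or with unfolded proteins in the endoplasmic reticulum. It is controlled mainly at translation, and so its own transcription is only part of its regulation. With C/EBP partners it activates genes for amino acid uptake and synthesis, for charging tRNAs, and for CHOP (Ddit3) and further stress factors. Aminoacyl-tRNA synthetases join each amino acid to its tRNA, and embryonic stem cells, which divide fast, make much protein and use one-carbon metabolism heavily.

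Total counts were 7295334 to 12168380 per library, and the 33 genes took 0.405%, 0.410% and 0.329% of them before treatment (clones a, b and c in turn), then 0.470%, 0.473% and 0.361%. Levels are given in CPM, a gene's counts relative to the TMM-scaled library total. A gene that was counted and has 0 counts could be as high as 3 counts, or 0.247 to 0.411 CPM. Slc7a5, Map1lc3b, Eif2s2, Gatb and Tubb3 are listed at 0 in every library, and whether their symbols were counted was not tested, so a 0 in this table need not mean a low level. The lowest count of a member in any library was 12, for Cebpb. All 12 embryonic stem cell markers were detected, with a summed level of 3301 to 3450 CPM untreated and 2297 to 2702 CPM after 4OHT. The 8 fibroblast and feeder markers summed to 2.73 to 3.05 CPM and 3.59 to 5.41 CPM, with Lum and Postn listed at 0 in every library and 2 of the 8 past the filter. Summed levels of 6 primitive endoderm markers were 7.29 to 10.7 and 9.03 to 11.4 CPM, those of 6 trophoblast markers 111 to 116 and 78.8 to 92.5 CPM, and those of 4 neural markers, with Tubb3 at 0, 24.2 to 26.1 and 37.4 to 51.9 CPM. The part of these shifts in the results below was not tested. Within each group clone c differed most from the others, with a chi-square per gene of 5.05 to 10.6 against 2.20 and 2.36 between clones a and b, so clone c is set beside the results throughout. In these bulk libraries, a change in the number of cells that transcribe a gene and a change in RNA per cell cannot be told apart.

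ATF4 acts with C/EBP proteins on a composite site whose core reads TGATGNAA, and this core was searched on both strands of the RefSeq promoters (GRCm38.p6, 250 bases before to 50 after the start), which are at hand for 26 of the 33 genes. Cars, Hars, Lars, Nars, Rars, Vars and Wars had no entry. The core stood in 8 of the 26 genes (30.8%), against 302 of 10856 tested genes with a promoter (2.78%) and 4.51% of all genes in the promoter table. The members were chosen as genes of the ATF4 programme, so this larger share may follow from the choice and is no separate result. All 5 synthetases with the core are among those reported as ATF4 targets. Matches in 7 of these genes are shown, since the core stands in a larger share of the members' promoters than of all tested ones. Each line gives 28 bases, 5′ to 3′, on the strand that reads the core forward, with the core in capitals.
Chac1 (chr2:119351039-119351066, minus strand): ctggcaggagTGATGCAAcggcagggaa
Yars (chr4:129189896-129189923, plus strand): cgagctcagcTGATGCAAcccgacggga
Iars (chr13:49682127-49682154, minus strand): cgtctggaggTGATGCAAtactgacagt
Tars (chr15:11399656-11399683, plus strand): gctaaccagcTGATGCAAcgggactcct
Gars (chr6:55037961-55037988, minus strand): gcccggtgcaTGATGAAAtagcgcagcc
Trib3 (chr2:152344029-152344056, plus strand): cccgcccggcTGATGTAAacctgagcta
Asns (chr6:7693215-7693242, minus strand): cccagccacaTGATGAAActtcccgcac

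The match in Chac1, which had the largest fold change of the genes shown, lies 193 bases before the RefSeq start. The Chac1 promoter is printed on the gene's strand, with the core (here in reverse complement) in capitals.
Chac1 promoter (chr2:119350992-119351291, plus strand): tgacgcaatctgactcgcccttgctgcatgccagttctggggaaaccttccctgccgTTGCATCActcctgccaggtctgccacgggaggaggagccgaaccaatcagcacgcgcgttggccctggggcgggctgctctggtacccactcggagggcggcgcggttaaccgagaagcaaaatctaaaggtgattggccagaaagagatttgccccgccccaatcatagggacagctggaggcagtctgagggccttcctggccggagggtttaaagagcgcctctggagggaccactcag

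Of the 8 genes with the core, 5 rose after 4OHT, and of the 18 with a promoter and no match, 11 rose. Among all other tested genes with the core (294 without the members), 25.2% were higher and 25.9% lower, beside 28.6% and 28.6% of all tested genes with a promoter. Other motifs were searched in the same windows, on both strands. The CCAAT box stood in 16 of 26 members (61.5%, against 42.9% of tested genes) and the E-box CACGTG in Aars, Farsb, Iars and Tars (15.4% against 11.5%). The cyclic AMP element TGACGTCA (3.45% of tested genes) and the EGR motif GCGGGGGCG (6.44%) were in none of the 26 windows. The ETS motif CCGGAAGT was in Ddit3, Farsa and Mars (11.5% against 8.56%), and the AP-1 motif TGANTCA in Ddit3 and Qars (7.69% against 6.33%).

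Transcription of the programme was higher after 4OHT in most members. By edgeR's quasi-likelihood test on counts, with Benjamini-Hochberg adjustment over all tested genes and a threshold of 0.05, 21 of 33 rose (63.6%) and 1, Vars, fell, where 28.5% of all tested genes rose and 28.6% fell. The median log2 fold change was 0.39, beside a median of -0.0005 and quartiles of -0.46 and 0.34 over all tested genes. In 14 members (42.4%) all 3 treated libraries lay above all 3 untreated ones, as in 31.4% of all tested genes, and no member lay wholly below, as 31.9% of tested genes did. The stress factors moved most (5 of 7 higher, median 0.97), the metabolic enzymes less (4 of 6, median 0.51) and the synthetases least (12 of 20 higher, median 0.28), with 4 members, Ddit3, Cebpb, Chac1 and Phgdh, past a log2 fold change of 1.

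The calls depend on scaling. TMM, the scaling used here, assumes that most genes do not change. By library size alone the median of all tested genes shifts to -0.20 on the log2 scale (17.4% higher and 41.0% lower over all tested genes), and 10 members were higher and 2, Vars and Dars, lower, with a median of 0.19. The main fit holds no clone term and so leaves out the pairing by clone, which widens its intervals where clones differ. With clone as a block, 26 members were higher, where 34.1% of all tested genes were. Without treated library a 13 members were higher, beside 25.2% of all tested genes, and without treated library b also 13, beside 24.8%. The 8 members Atf4, Atf5, Ddit3, Cebpb, Phgdh, Mthfd2, Aars and Hars were called in each of 18 alternative settings that kept the main threshold. The stricter thresholds are not among the 18. With a log2 fold change of at least 1 added, only Ddit3, Cebpb and Phgdh of these 8 were still called. How many of all tested genes were called in each of the 18 was not counted.

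**Figure D1:**
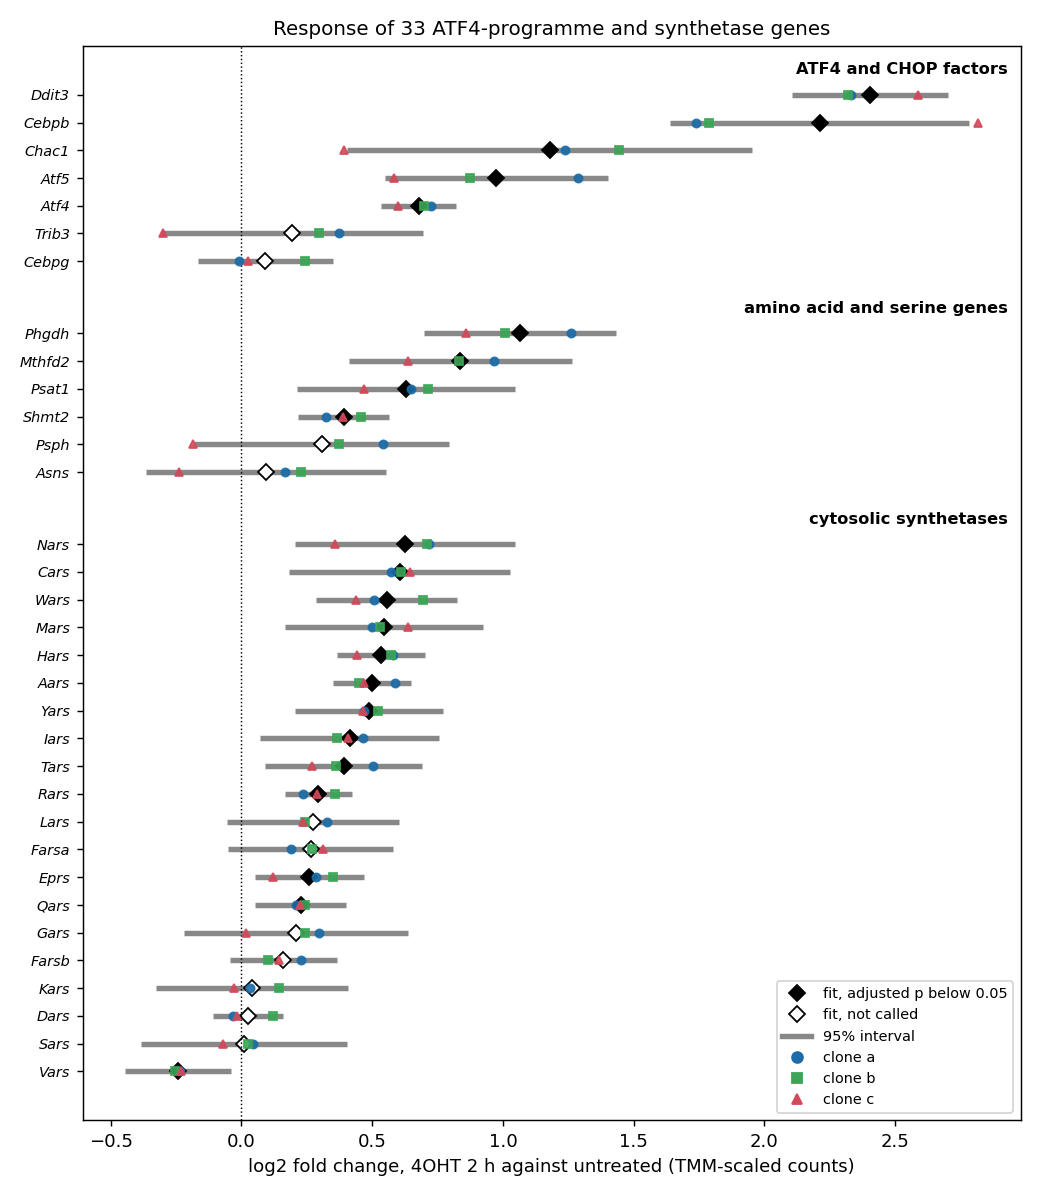
Log2 fold change after 4OHT for each of the 33 genes, by functional set: diamonds are the fitted values (filled where the adjusted p is below 0.05), bars the 95% intervals, and coloured symbols the change within each clone. Ddit3 and Cebpb stand farthest to the right at 2.40 and 2.21, Vars alone among filled diamonds lies left of 0, and the symbols of clone c lie lowest in 19 genes.

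Among the transcription factors, Atf4 itself (chromosome 15, 80255184 to 80257541, GRCm38) was at 134, 129 and 130 CPM in the untreated libraries (clones a, b and c, the order used throughout) and at 222, 209 and 197 CPM after 4OHT. The log2 fold change was 0.68 ± 0.06 (SE, n = 3 libraries per group), the most even change of the factors, with 0.73, 0.70 and 0.60 in clones a, b and c. Atf5, a close relative also induced by eIF2 phosphorylation, was at 8.18, 8.88 and 7.55 CPM untreated and 20.2, 16.5 and 11.4 CPM treated (0.97 ± 0.19). For both genes every treated library lay above every untreated one, but the Atf5 values spread over a wider range after 4OHT. Atf5 shares 82 exon bases with Nup62 on the opposite strand, and since the use of strand in counting is not given, reads there cannot be assigned.

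Ddit3, which encodes the pro-apoptotic factor CHOP (chromosome 10, 127290774 to 127296288), had the largest change of the 33 genes. It was at 15.0, 15.2 and 10.5 CPM untreated and at 76.3, 76.6 and 64.0 CPM after 4OHT. The groups lay far apart, and the log2 fold change of 2.40 ± 0.13, with a 95% interval of 2.11 to 2.70, is a 5.30-fold rise. The tail of Ddit3 overlaps that of the synthetase gene Mars by 68 bases on the opposite strand. Its promoter is printed because it holds 2 of the 3 motifs of ERK-responsive factor families that were searched, ETS (at -200, in reverse complement) and AP-1 (at -242), in capitals, and not that of EGR, with positions counted from the RefSeq start. It was chosen after its values were seen, and a match is a run of letters, not a shown binding site.
Ddit3 promoter (chr10:127290543-127290842, plus strand): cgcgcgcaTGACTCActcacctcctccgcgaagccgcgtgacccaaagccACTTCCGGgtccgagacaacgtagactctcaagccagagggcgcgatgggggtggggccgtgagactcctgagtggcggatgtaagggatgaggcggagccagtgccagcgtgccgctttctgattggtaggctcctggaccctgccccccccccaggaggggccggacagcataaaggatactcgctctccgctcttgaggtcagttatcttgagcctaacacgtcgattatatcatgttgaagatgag

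The C/EBP partners differed. Cebpb, which pairs with ATF4 and CHOP, was the lowest member, at 1.60, 1.90 and 1.18 CPM untreated (20, 25 and 12 counts), and reached 5.83, 7.05 and 9.50 CPM after 4OHT (51, 57 and 65 counts). Its log2 fold change was 2.21 ± 0.26, with the groups apart and the highest treated value in clone c. It shares 312 exon bases with Tmem189 on the opposite strand. Cebpg, the partner that has no activation domain, was at 49.1, 43.9 and 38.9 CPM untreated and 48.9, 52.0 and 39.6 CPM treated, and the groups overlapped (0.09 ± 0.12, 95% interval -0.17 to 0.35, not called).

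The downstream effectors Chac1 and Trib3 had lower levels in clone c. Chac1 (chromosome 2, 119351229 to 119354381), whose enzyme breaks down glutathione, was at 17.2, 15.4 and 10.1 CPM untreated and 40.7, 42.3 and 13.3 CPM after 4OHT (1.18 ± 0.35). Clones a and b more than doubled, while treated clone c lay below both untreated libraries of the others. The call of Chac1 was lost without treated library a, without treated library b, without both libraries of either clone and with DESeq2, with adjusted p-values of up to 0.138 over all alternatives by edgeR, DESeq2 or limma-voom. DESeq2's fold change was 1.18, and with clone as a block the value was 1.16 ± 0.13 and called. Trib3, a pseudokinase that feeds back on ATF4 and CHOP, was at 27.4, 29.0 and 21.5 CPM untreated and 35.5, 35.6 and 17.4 CPM treated (0.19 ± 0.23, not called). It was higher in treated clones a and b and lower in clone c, and it was called higher when treated library c or both libraries of clone c were left out (up to 0.45).

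**Figure D2:**
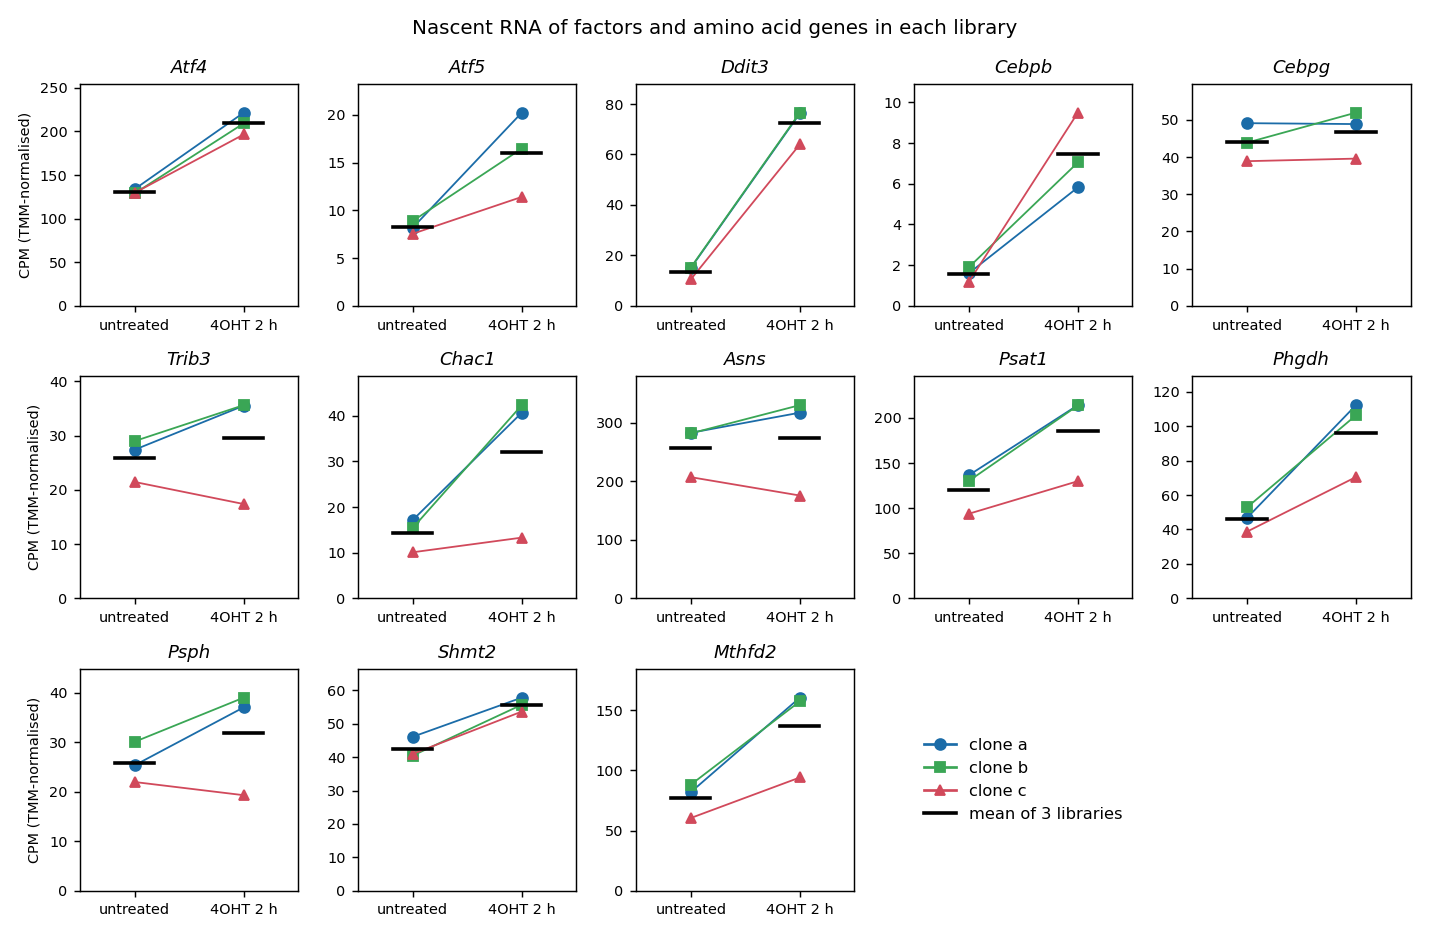
TMM-scaled CPM (linear axes from 0) of the 7 factors and 6 enzymes in each library, untreated and after 2 h of 4OHT; lines join the libraries of a clone and bars are means of 3 libraries. Ddit3 rises alike in the 3 clones, while treated clone c lies below untreated clone c in Trib3, Asns and Psph.

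Of the serine synthesis genes, Phgdh and Psat1 rose and Psph was not called. Phgdh (chromosome 3, 98313170 to 98339990), whose enzyme opens the pathway from glycolysis, was at 46.7, 52.8 and 38.7 CPM untreated and at 112, 106 and 70.4 CPM treated (1.07 ± 0.16), with no overlap. Psat1, the aminotransferase of the second step, went from 137, 130 and 93.8 CPM to 214, 214 and 130 CPM (0.63 ± 0.19). Each clone rose, but treated clone c only reached the level of untreated clone b. The call of Psat1 was lost with DESeq2 without a block and without treated library a or b. With clone as a block Psat1 was called higher by edgeR (0.62 ± 0.05) and by DESeq2 (0.62). Psph, the phosphatase of the last step, had 25.3, 30.1 and 22.0 CPM untreated and 37.0, 39.0 and 19.3 CPM treated, with overlap. Its log2 fold change of 0.31 ± 0.22 was not called, and with clone as a block it was 0.30 ± 0.10 (adjusted p = 0.0165 by edgeR's quasi-likelihood test), while DESeq2 with the same block did not call Psph (0.27, adjusted p = 0.160). It was also called without treated library c and without both libraries of clone c. Psph shares 452 exon bases with Cct6a and Shmt2, below, 32 with Ndufa4l2, each on the opposite strand.

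Both mitochondrial one-carbon enzymes rose without overlap. Mthfd2, the folate dehydrogenase of proliferating cells, went from 81.9, 88.1 and 60.5 CPM to 160, 157 and 94.1 CPM (0.84 ± 0.19). Shmt2, which takes the one-carbon unit from serine, went from 46.1, 40.5 and 41.0 CPM to 57.8, 55.7 and 53.6 CPM (0.39 ± 0.08). Its change was smaller but close to equal in the clones (0.33, 0.46 and 0.39). Asns, the asparagine synthetase gene that is a standard readout of ATF4 activity, had 283, 282 and 207 CPM untreated and 317, 330 and 176 CPM treated. Treated clones a and b lay above every untreated library, and treated clone c below every one. The log2 fold change was 0.09 ± 0.21 (95% interval -0.36 to 0.55, not called), and 0.07 ± 0.06 with clone as a block, also not called. Asns was called without treated library c (0.33) and without both libraries of clone c (0.17).

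The cytosolic synthetases changed by small amounts. The largest rise, of Nars (asparagine), was 1.54-fold, and every synthetase that rose had a log2 fold change between 0.23 and 0.63. Nars went from 169, 166 and 125 CPM to 278, 272 and 159 CPM (0.63 ± 0.19), and Cars (cysteine) from 223, 221 and 140 CPM to 331, 337 and 220 CPM (0.60 ± 0.19). In both, each clone rose and the groups still overlapped, because clone c was low in both conditions. Aars (alanine) went from 228, 260 and 252 CPM to 343, 356 and 349 CPM (0.50 ± 0.07) and Hars (histidine) from 33.9, 36.2 and 36.5 CPM to 50.7, 53.9 and 49.5 CPM (0.53 ± 0.08). These last 2 showed no overlap and no low clone. Aars shares 1326 exon bases with Exosc6 on the same strand, Hars 195 with Hars2, Farsb 248 with Sgpp2 and Yars 30 with C77080, the last 3 on the opposite strand.

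The other rises were Wars (tryptophan, 0.56 ± 0.12), Mars (methionine, 0.55 ± 0.17), Yars (tyrosine, 0.49 ± 0.13), Iars (isoleucine, 0.41 ± 0.15), Tars (threonine, 0.39 ± 0.13), Rars (arginine, 0.29 ± 0.06), Eprs (glutamate and proline, 0.26 ± 0.09) and Qars (glutamine, 0.23 ± 0.08). Wars, Mars, Yars, Rars and Qars had groups that did not overlap, while Iars, Tars and Eprs overlapped. The calls of Cars, Nars, Mars, Iars, Tars and Eprs were lost without treated library a and also without treated library b. Those of Cars, Nars and Qars were lost with DESeq2 without a block. Qars also lost its call without any 1 of untreated libraries a and b and treated libraries a and c. With clone as a block Cars, Nars, Mars, Iars, Tars and Eprs were called higher by edgeR and by DESeq2. By edgeR the blocked values were 0.61 ± 0.04 for Cars, 0.61 ± 0.06 for Nars and 0.26 ± 0.05 for Eprs. Qars was called with the block by edgeR but not by DESeq2. Rars was the tightest of the other rises, at 129, 123 and 125 CPM untreated and 152, 157 and 153 CPM treated.

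Lars (leucine), Farsa and Farsb (the phenylalanine enzyme's subunits) and Gars (glycine) had positive values that were not called, at 0.27 ± 0.15, 0.26 ± 0.14, 0.16 ± 0.09 and 0.21 ± 0.19. Gars was at 358, 374 and 259 CPM untreated and 440, 443 and 262 CPM treated, so that clone c hardly moved. Lars, Farsb and Gars were called without treated library c, and Farsa without untreated library c or treated library a. With clone as a block these 4 genes were called higher by edgeR's quasi-likelihood test, at adjusted p-values of 2.33e-05, 0.000253, 0.00460 and 0.00184, and log2 fold changes of 0.27, 0.26, 0.16 and 0.19. DESeq2 with the same block did not call Farsb (adjusted p = 0.0659). Dars (aspartate), Kars (lysine) and Sars (serine) had values of 0.03 ± 0.06, 0.04 ± 0.16 and 0.01 ± 0.18 with overlapping groups. The interval of Dars, -0.11 to 0.16, is narrow, and those of Kars (-0.32 to 0.41) and Sars (-0.38 to 0.40) are as wide as the rises of other synthetases. Under scaling by library size the sign of these 3 turned.

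Vars (valine, chromosome 17, 35000987 to 35016322) was the 1 member that fell. It was at 85.0, 89.8 and 102 CPM untreated and 72.3, 75.2 and 86.5 CPM after 4OHT (-0.24 ± 0.09), and dropped in each clone by a like amount (-0.23, -0.25 and -0.23). The groups overlapped, since treated clone c lay above untreated clone a. The adjusted p was 0.0422 by edgeR's quasi-likelihood test. The call was lost with DESeq2 without a block and without untreated library b or c or treated library a or b (highest adjusted p 0.199 over the alternatives). With clone as a block Vars was called lower by edgeR (-0.24 ± 0.05) and by DESeq2 (-0.24).

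By structure, 7 of 9 class I synthetases rose and 1, Vars, fell (median 0.41), and 4 of 10 class II synthetases rose (median 0.24). The classes are 2 unrelated catalytic folds, and Eprs, which joins one of each, is in neither count. Of the 8 synthetases held in the multi-synthetase complex 5 rose (Eprs, Iars, Mars, Qars and Rars, median 0.27). Of 12 synthetases reported as ATF4 targets 9 rose (median 0.45), and of the other 8, 3 rose and 1 fell (median 0.19). Of all tested genes, 28.5% rose and 28.6% fell. No difference between these subsets was tested.

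Per kilobase of annotated exon, the untreated levels of the members spanned from 1.04 ± 0.24 CPM for Cebpb to 106 ± 20.1 CPM for Gars (SD, n = 3). Asns (94.1 ± 15.9 CPM per kb), Atf4 (55.5 ± 1.12) and Farsb (55.1 ± 4.98) followed Gars, and neither Gars and Asns nor Atf4 and Farsb differed beyond their spread. Per kilobase of gene span, a scale that fits unspliced RNA, Atf4 led with 55.5 CPM and Asns had 14.2 CPM per kb. Whether exons or whole genes were counted is not given in the sources used here, and the order of these genes depends on it.

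Clone c stood apart in these genes. A joint edgeR quasi-likelihood test of the clone terms beside treatment called 24 of 33 members (72.7%), beside 12.5% of all tested genes. Of the 24, 21 were lower in clone c than in clone a and 3 higher, and the difference ran from -1.21 for Chac1 to 0.57 for Kars on the log2 scale, while clones b and a differed by at most 0.21 in size. The lowest after Chac1 were Trib3 (-0.64), Asns, Psat1 and Cars (-0.63 each). Farsa (0.50) and Vars (0.26) joined Kars on the other side.

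Atf4 and Aars did not pass the clone test, with clone c minus clone a at -0.11 and 0.08, nor did Atf5 (-0.51), Cebpb (0.42), Shmt2, Dars, Hars, Qars or Rars. Of the 12 synthetases reported as ATF4 targets, 11 passed it, all but Aars, and of the other 8, 4 did. Of the 8 genes with the composite core 7 passed, and of the 18 with a promoter and no match 12. Over the other tested genes with the core the share was 15.3%, beside 12.3% of all tested genes with a promoter, members left out. Outside the members, 16 of 30 further ATF4 targets passed the clone test, and 1 of 19 genes in the list of mitochondrial synthetases, Cars2.

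The change after 4OHT was lowest in clone c for 19 of 33 members, and 26 members had the same sign in each clone. Neither was counted over all tested genes, so neither can be called particular to these genes. With both libraries of clone c left out, 27 members were higher, beside 29.6% of all tested genes, and with both of clone b left out, 9, beside 19.4%. The clones' own changes rest on 1 library per condition and their difference was not tested.

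**Figure D3:**
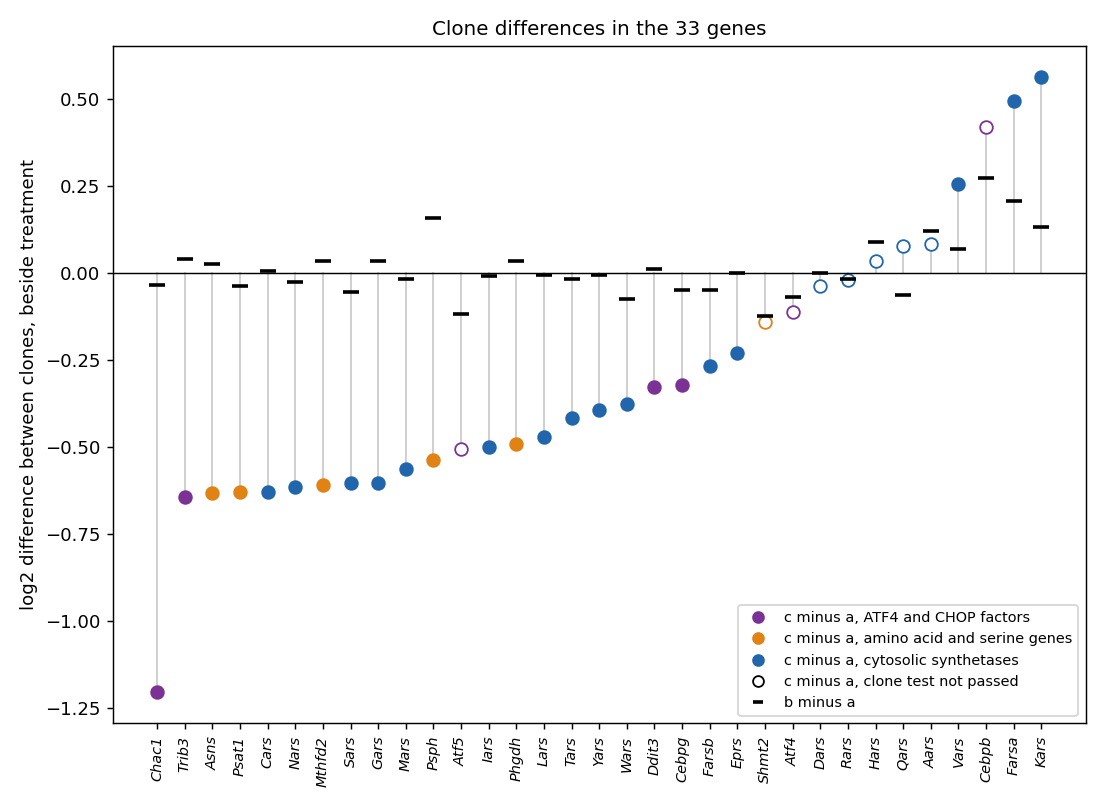
Log2 difference between clones, fitted beside treatment, for each of the 33 genes: circles are clone c minus clone a (filled where the joint clone test passed, coloured by functional set) and dashes clone b minus clone a. Most circles lie below 0, from -1.21 for Chac1, and the dashes lie close to 0.

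The lists of neighbouring genes were scaled and tested in the same fit, and the shift of -0.20 under library size alone applies to them too, which would bring their medians between 0 and 0.20 below 0. The wider ATF4 target genes, a list of uptake, metabolic and stress genes, split. Of 30 tested, 14 rose and 5 fell (median 0.23), beside 28.5% and 28.6% of all tested genes. The rises were led by Stc2, a secreted glycoprotein (1.60 ± 0.39), Ero1l, an oxidase of the endoplasmic reticulum (1.48 ± 0.08), the cationic amino acid carrier Slc7a3 (1.45 ± 0.19), the autophagy receptor Sqstm1 (1.34 ± 0.06) and the cystine carrier Slc7a11 (1.25 ± 0.28). The falls were Gpt2 (-1.11 ± 0.18), Cth (-0.81 ± 0.18), Gdf15 (-0.72 ± 0.22), Cbs (-0.58 ± 0.14) and Pycr1 (-0.38 ± 0.12), of which Gpt2 is an alanine aminotransferase, Cth and Cbs make cysteine from homocysteine and Pycr1 makes proline. Of the enzymes in this list, then, some fell where Phgdh, Psat1 and Mthfd2 rose.

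Upstream, 6 of 17 genes of the eIF2 kinases, phosphatases and exchange factor rose and 2 fell (median 0.09). Of all tested genes, 28.5% rose and 28.6% fell. By library size alone 1 of this list rose, by upper quartile 2 and with DESeq2 3, beside 17.4%, 22.7% and 22.4% of all tested genes. The falls were then 3, 3 and 2, beside 41.0%, 34.3% and 21.1%. Ppp1r15a (GADD34), the inducible subunit that removes phosphate from eIF2 and is itself a target of the programme, was at 24.3 ± 3.48 CPM untreated and 35.7 ± 5.63 CPM treated (SD, n = 3; 0.55 ± 0.14), and Ppp1r15b, its constitutive relative, rose by 0.37 ± 0.08. Eif2b2, Eif2b1 and Eif2s1 rose by 0.28, 0.23 and 0.21. Eif2ak3, the kinase PERK of the endoplasmic reticulum, fell by 0.36 ± 0.07 on the log2 scale and Dnajc3, an inhibitor of such kinases, by 0.56 ± 0.09. The kinase genes' RNA says nothing of their activity.

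Of 14 genes in the other branches of the unfolded protein response 3 rose and 4 fell (median 0.10), beside 28.5% and 28.6% of all tested genes. The rises were Dnajb9 (0.55 ± 0.12), Ern1 (0.40 ± 0.08) and the chaperone Hspa5 (0.34 ± 0.07). The falls were Sdf2l1 (-0.84 ± 0.26), Edem1 (-0.37 ± 0.08), Pdia4 (-0.25 ± 0.09) and Manf (-0.24 ± 0.09). Of 16 genes of one-carbon and glycine metabolism 5 rose and 7 fell (median -0.10), beside the same shares of all tested genes. Mthfd1l (0.91 ± 0.11) and Aldh1l2 (0.77 ± 0.17), mitochondrial like Mthfd2 and Shmt2 and also counted in the list of wider ATF4 targets, were the largest rises. Their cytosolic counterparts Mthfd1 (-1.03 ± 0.07) and Aldh1l1 (-2.39 ± 0.17) fell, although cytosolic Shmt1 rose (0.40 ± 0.06) and mitochondrial Mthfd2l fell (-1.06 ± 0.22).

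The mitochondrial synthetases, which charge tRNAs for the organelle's own ribosomes, gave more falls than rises. Of 19 tested 8 fell and 1 rose, where 28.6% of all tested genes fell and 28.5% rose. The 19 include Gatc and Qrsl1, which are subunits of an amidotransferase and not synthetases, and the 1 rise was Gatc. The median was -0.08, beside 0.28 for the cytosolic set. Nars2 (-1.22 ± 0.11), Cars2 (-1.20 ± 0.15), Ears2 (-0.73 ± 0.07), Iars2 (-0.63 ± 0.08) and Vars2 (-0.41 ± 0.11) fell most, and Gatc, a subunit of the mitochondrial glutamine amidotransferase, rose by 1.04 ± 0.08. Lars2, at 24440 ± 5683 CPM untreated (SD, n = 3), had far more counts than any other gene of these lists and was not called (0.20 ± 0.16). Whether all these counts come from Lars2 transcripts was not tested, so neither its level nor its missing call is read further. Of the 3 scaffold proteins of the multi-synthetase complex Eef1e1 rose (0.21 ± 0.06), Aimp1 fell (-0.27 ± 0.07) and Aimp2 was not called (-0.04 ± 0.12). No test of one list against another was made.

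**Figure D4:**
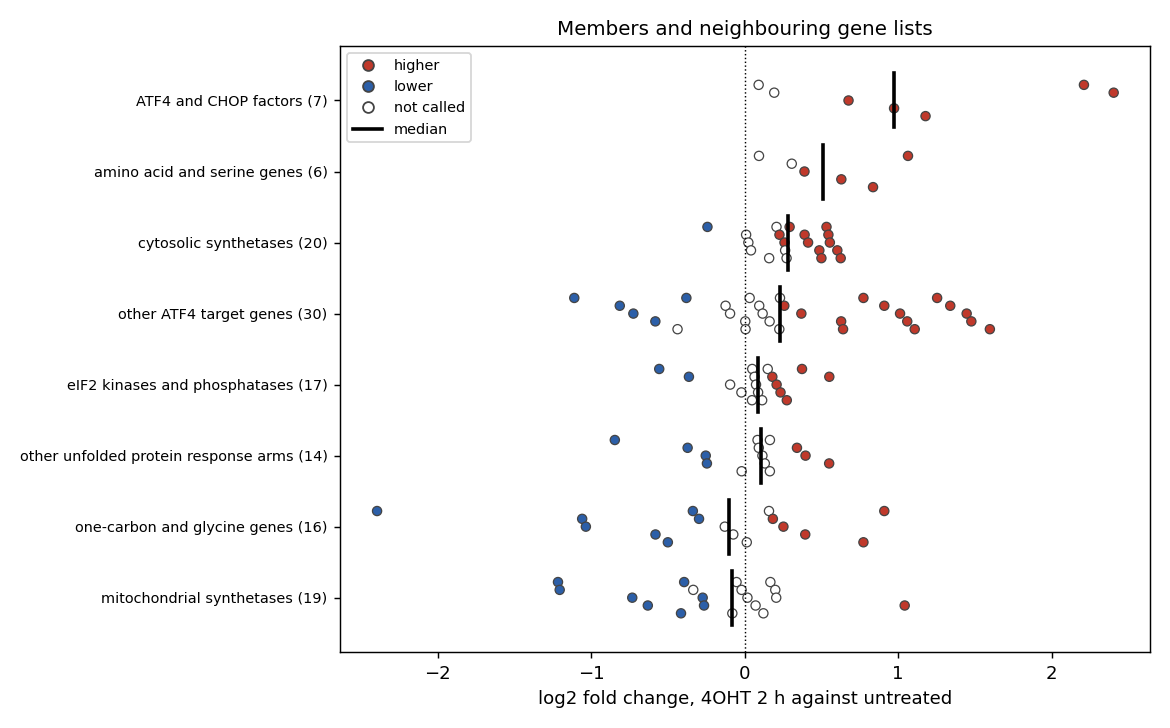
Log2 fold change after 4OHT of each tested gene in the 3 sets of members and 5 neighbouring lists (number tested in brackets), red where higher, blue where lower and open where not called, with the list's median as a bar. Medians run from 0.97 for the factors to -0.10 for one-carbon and glycine genes, and mitochondrial synthetases lie mostly left of 0.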

How the data were processed

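Nascent RNA libraries of 3 untreated and 3 4OHT-treated samples were deposited as a table of raw read counts, one whole number per gene and library, which the authors had not normalized. STAR, featureCounts and the mm10 build are named per the submitters' processing notes. No source used here gives their versions, the feature counted or the use of strand. Each column was tied to its sample by clone letter and time (0 columns unmapped).

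Counts were filtered with filterByExpr (minimum count 10, minimum total 15), scaled by TMM and tested with edgeR 4.0.16 in R 4.3.3 (glmQLFit and glmQLFTest). The model had no clone term, and p-values were adjusted by Benjamini-Hochberg over 13869 genes. The SEs, intervals and calls of this fit thus ignore the pairing by clone and hold the differences between clones. The SE was 0.19 for Psat1, 0.35 for Chac1 and 0.19 for Cars, and 0.05, 0.13 and 0.04 with clone as a block. Log2 CPM of single clones used a prior count of 2. No library was a copy of another in its group (chi-square per gene at least 2.20). The floor of 3 counts covers counting error only. Positions and lengths come from GENCODE M21 (GRCm38, the assembly of mm10) and promoters from RefSeq (GRCm38.p6). The pairing by clone comes from the labels, where a letter stands for 1 clone before and after 4OHT. Residuals about the group means had correlations of 0.282 (a), 0.165 (b) and 0.357 (c) for libraries of the same clone, and of -0.283 to 0.0682 otherwise.

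The alternatives were DESeq2-type size factors, library size and upper quartile scaling, no filter, a CPM filter, DESeq2 1.42.0, limma-voom (limma 3.58.1), the clone block, stricter thresholds, and each library or clone left out. The members and lists were chosen with earlier results of these data known. All 33 members are named, with up to 5 called genes of largest change in each direction from each neighbouring list, passing over genes with a mean log2 CPM under 1. Promoters printed are that of Chac1, the member with the composite core and the largest change, and that of Ddit3. Some sequence that this rule allows is not reported here.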

Additional observations from a re-analysis of the deposited data

Results flagged for a closer look

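In 3 members the change in clone c ran opposite to that in both other clones, each clone's change being at least 0.1 in size on the log2 scale. How many of all tested genes meet this rule was not counted. Trib3 changed by 0.37 in clone a, 0.30 in clone b and -0.3004 in clone c. Asns changed by 0.17, 0.23 and -0.2371, and Psph by 0.54, 0.37 and -0.1847. Each value rests on 1 library per clone and condition, and the difference between clones in the response was not tested. These 3 genes were also lower in clone c than in clone a beside treatment, by -0.64, -0.63 and -0.54.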

How the results depend on the processing

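The counts of members past the threshold moved with the scaling and with the stricter rules. By library size alone 10 members were higher and 2 lower, with 2 amino acid and serine genes higher, 3 synthetases higher and 2 lower, and the median of the members was 0.19, or 0.29 by upper quartile. This follows the shift of all genes that the scaling makes. Of all tested genes 17.4% were higher by library size, 22.4% with DESeq2 and 22% at an adjusted p of 0.01. The shares lower were 41.0%, 21.1% and 21.4% in turn. With the fold change added 6.83% were higher and 9.55% lower. With 1 library or clone left out 19.4% to 29.6% were higher and 19.4% to 30.8% lower. DESeq2 called 0 members, and so 0 synthetases, lower, and 16 members higher. At an adjusted p of 0.01, 12 members and 5 synthetases were higher and 0 lower. With a log2 fold change of at least 1 added, 4 members were higher (3 factors, 1 amino acid and serine gene, 0 synthetases) and 0 lower. With 1 library or 1 clone left out, 9 to 27 members and 2 to 15 synthetases were higher, 0 to 1 lower, and the median was 0.35 to 0.54. The cause was not tested.

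With the replicate block, 26 members were higher in edgeR and 23 in DESeq2, beside 34.1% and 23.1% of all tested genes. In each fit 1 member was lower, beside 33.3% and 20.4% of all tested genes. Beside the 5 calls gained in edgeR, which are given with the genes above, the block changed no other call in edgeR. Of these 5, DESeq2 with the block called Farsa, Gars and Lars, and it lost Qars.

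The sign reversed in 7 genes, none of them called in the comparison above. By library size the values were -0.0095 (Trib3), -0.11 (Cebpg), -0.11 (Asns), -0.17 (Dars), -0.041 (Farsb), -0.15 (Kars) and -0.19 (Sars). By upper quartile they were -0.0073 (Cebpg), -0.0059 (Asns), -0.074 (Dars), -0.056 (Kars) and -0.089 (Sars). With 1 library or clone left out they ran from -0.0013 to 0.20 for Cebpg, -0.056 to 0.33 for Asns, -0.025 to 0.055 for Dars, -0.11 to 0.23 for Kars and -0.16 to 0.19 for Sars. The other 25 members with positive values kept their sign under all alternatives. Depth was lowest for Cebpb, with 12 to 25 untreated counts.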
